A study of Canis lupus familiaris with 8 samples.

Results

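IL6, IL17A, CCL20 and IL13 are 4 of the 160 genes on a custom canine NanoString panel, and they were taken by their probe names. Their transcripts were counted in skin biopsies of 2 dogs with Vogt-Koyanagi-Harada disease (VKH, also called uveodermatologic syndrome), 1 dog with vitiligo and 5 healthy dogs. The VKH dogs were a male Bernese Mountain Dog of 2.5 years (VKH replicate 1) and a male Husky of 2 years (VKH replicate 2), and the dog with vitiligo was a neutered male Labrador cross of 1 year. These are the sample labels' descriptions. For VKH replicate 2 and the vitiligo dog the paper states other ages, and it calls VKH replicate 2 a neutered Siberian Husky and the vitiligo dog a mix of Rottweiler and Labrador. The healthy dogs were 6 to 12 years old, 2 neutered males and 3 spayed females, and their skin came from the margins of amputated legs, whereas the cases were sampled by shave or punch biopsy of lesions. The paper names the nose as the biopsy site of the cases. Disease therefore cannot be told apart from age, site or mode of biopsy, and the paper mentions steroid treatment of the first VKH dog without dating it against the biopsy. All tissue was archival, fixed and embedded in paraffin, and each dog gave 1 sample.

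IL6 is a cytokine released by fibroblasts, endothelial cells, macrophages and keratinocytes, and it drives the acute phase response. IL17A is the signature cytokine of type 17 T cells, and together with other signals it induces CCL20 in keratinocytes. CCL20 is the chemokine that attracts cells carrying CCR6. IL13 is a type 2 cytokine that acts on keratinocytes and fibroblasts and is a target of treatment in atopic skin disease. Type 17 and type 2 cytokines have both been discussed in depigmenting disease, and the comparison here asks which of these transcripts could be measured in the skin and whether they differed between diseased and healthy dogs.

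A NanoString probe carries a fluorescent barcode that is counted once per captured RNA molecule. The panel genes summed to 209889 to 742667 counts per dog. Background was set in each lane at the mean plus 2 SD of the 8 negative control probes, which are designed to bind no RNA of the sample, and it lay between 16.6 and 27.8 raw counts. The faintest of the positive controls gave 58 to 139 counts. The keratinocyte markers, 7 of 7 on the panel, were above background in every dog. By this limit CCL20 was measurable in 8 of 8 dogs, IL6 in 7, IL13 in 6 and IL17A in 0. At the mean plus 3 SD the numbers were 8 for CCL20, 6 for IL6, 6 for IL13 and 0 for IL17A. Above the highest negative control of the lane they were 8, 6, 7 and 0. Over the 156 genes other than housekeeping, 57.1% were above background in all 8 dogs and 2.56% in no dog.

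**Figure D1:**
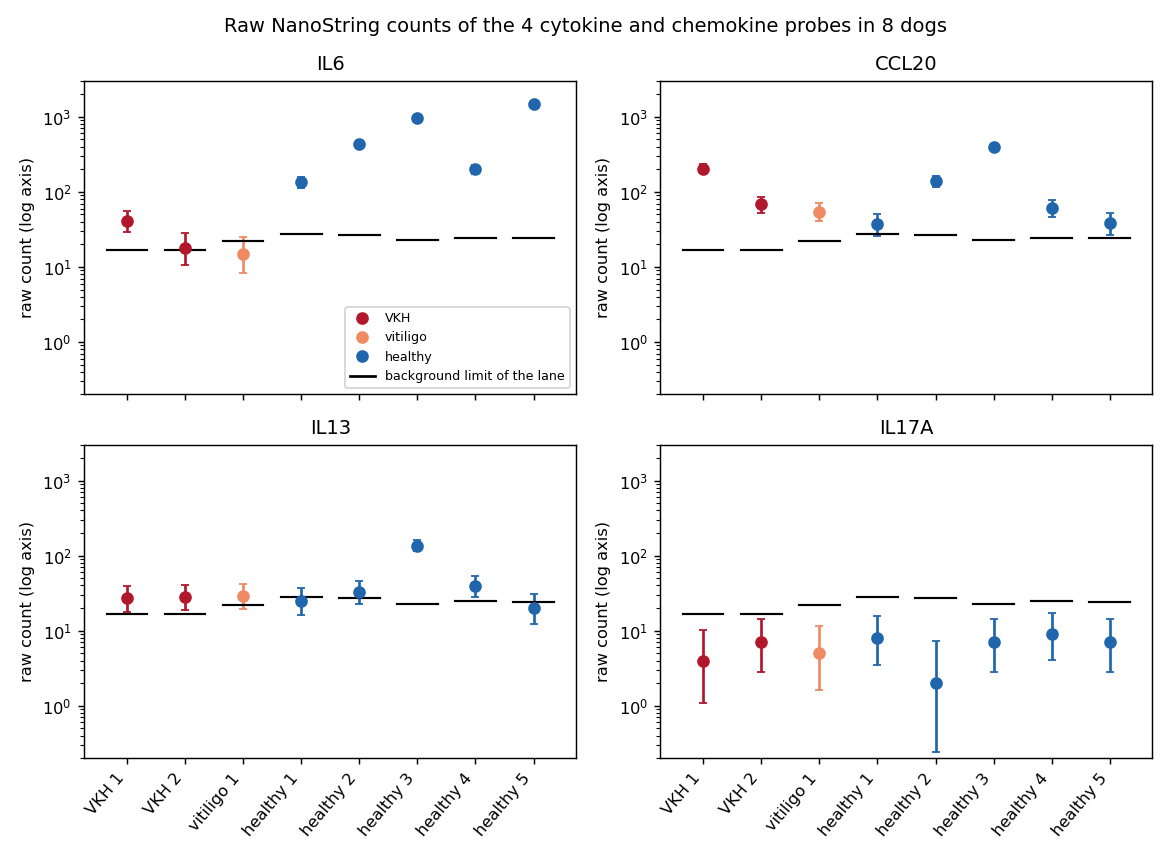
Raw counts of IL6, CCL20, IL13 and IL17A (vertical axis, logarithmic) in each of the 8 dogs, with the exact 95% Poisson interval of the count as an error bar and the background limit of the lane as a black line. IL6 lay at 15 to 41 counts in the 3 cases and at 134 to 1498 in the healthy dogs, and IL17A lay under the line in all 8 dogs.

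IL6 was lower in the diseased skin than in any healthy sample, and it had the most negative log2 fold change of the 156 genes in VKH and in vitiligo. Its raw counts were 41 and 18 in the VKH dogs and 15 in the vitiligo dog, against 134, 435, 979, 200 and 1498 in healthy replicates 1 to 5. After scaling by the geometric mean of the 4 housekeeping genes they became 27.7 and 22.6 in VKH and 17.2 in vitiligo, against 190, 530, 527, 228 and 1456 in the healthy dogs. The mean was 25.1 ± 3.59 in VKH (SD, n = 2) and 586 ± 512 in healthy dogs (SD, n = 5). No case overlapped the healthy range, and the lowest healthy dog was 6.85 times the highest case. The healthy dogs differed among themselves by up to 7.68-fold, whereas the 2 VKH dogs differed by 1.22-fold.

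In the fit of all 8 dogs the log2 fold change of IL6 was -4.53 in VKH (standard error 0.92, adjusted p = 0.00362) and -5.08 in vitiligo (standard error 1.34, adjusted p = 0.0224). Genes called lower made up 12.2% of all genes in VKH and 2.56% in vitiligo. With the 3 cases as 1 group it was -4.69 (standard error 0.76, adjusted p = 0.000603), where 14.1% of genes were called lower. All 3 cases lay below all healthy dogs in 10.9% of genes. The exact permutation test, two-sided, gave p = 0.0357 for the 3 cases and p = 0.0952 for the 2 VKH dogs, in each case the smallest value that so few dogs allow. The call in VKH was lost only in the methods' t-test on raw counts (unadjusted p = 0.212), among 23 alternatives. The paper itself lists IL6 among the genes that differed between VKH and healthy dogs. That listing comes from its other test, over sets of genes, which was not rerun here. The comparisons share the 5 healthy dogs, and the spread of the vitiligo value was taken from the other dogs, since a lone sample has none.

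The cases lay near background. The vitiligo dog had 15 counts against a limit of 22.2, so only a bound can be given, and set at the limit it was at least 22.9-fold lower than the healthy mean of 586 scaled counts. VKH replicate 2 had 18 counts (95% Poisson interval 10.7 to 28.4, counting error only) against a limit of 16.6, and the highest negative control of its lane also had 18. VKH replicate 1 stood clear of its limit, with 41 counts (29.4 to 55.6) against 16.7. The 3 cases also lay below the 5 healthy dogs on raw counts and after scaling by the housekeeping genes without B2M, by the library total or by the positive controls, and the lowest healthy dog was 1.96 times (positive controls) to 10.8 times (library total) the highest case.

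Markers of several cell types also differed between cases and healthy dogs, some falling as IL6 did and others rising. The endothelial marker PECAM1, 1 of 3 listed genes on the panel, had 1457 to 1628 scaled counts in VKH and 2339 in vitiligo, against 2770.0 to 7084 in healthy skin. The fibroblast markers, 3 of 6 on the panel, summed to 23732 to 41327 in VKH and 48457 in vitiligo, against 41694 to 138359 in healthy skin, but went both ways. COL1A1, which made up most of the sum, had 19404 to 33319 scaled counts in VKH and 43479 in vitiligo, against 30239 to 124553 in healthy skin (VKH log2 fold change -1.21, adjusted p = 0.129), IGFBP5 fell by 1.53 in VKH (adjusted p = 0.0177), and SFRP2 rose by 4.77 in VKH (adjusted p = 0.000271) and 2.57 in vitiligo (adjusted p = 0.0244). The neutrophil markers, 2 of 7 on the panel, also parted. S100A12 had 4378 to 6033 scaled counts in VKH and 3052 in vitiligo, against 39.6 to 1451 in healthy skin (VKH log2 fold change 3.84, adjusted p = 0.0229), whereas CSF3R had 45.2 to 46.6 in VKH and 52.9 in vitiligo, against 78.5 to 175 in healthy skin, and fell in VKH. The sums of T cell markers, 5 of 9 on the panel, were 1813 to 2383 in VKH and 1740 in vitiligo, against 266 to 378 in healthy skin. Keratinocyte markers summed to 283513 to 523016 in VKH and 242922 in vitiligo, against 88566 to 188441 in healthy skin, and of the 7, KRT1, KRT10 and FLG rose in VKH. The sums of macrophage markers, 2 of 5 on the panel, overlapped, with 841 to 959 in VKH and 1005 in vitiligo, against 602 to 2515 in healthy skin, but the 2 genes parted. CD84, which is also in the T cell list, had 296 to 444 in VKH and 307 in vitiligo, against 80.7 to 127 in healthy skin. Its log2 fold change in VKH was 1.78 (adjusted p = 0.00124), whereas that of CD163 was -1.30 (adjusted p = 0.077). Every marker on the panel for these cell types was above background in all dogs, except for the T cell marker SH2D1A in 3 of the 5 healthy dogs. Their part in the fall of IL6 was not tested. In bulk skin, fewer cells that make a transcript and less of it per cell cannot be told apart.

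The genes whose pattern over the 8 dogs was most like that of IL6, among the 130 above background in at least 4 dogs, were CSF3R, CXCL14 and CYP1B1. The Pearson correlation of their log2 scaled counts with IL6 was 0.97, 0.94 and 0.93, given as a description over dogs that fall into diseased and healthy ones. Within the 5 healthy dogs it was 0.93 for CSF3R, 0.44 for CXCL14 and 0.93 for CYP1B1. Since IL6 separates cases from healthy dogs, this choice favours genes that do so too, and their tests add no separate support. CSF3R, the receptor for the neutrophil growth factor G-CSF, fell in VKH by 1.44 on the log2 scale (standard error 0.41, adjusted p = 0.0177). CXCL14, a chemokine of resting epithelium, changed by -2.08 in VKH (adjusted p = 0.00468) and -2.19 in vitiligo (adjusted p = 0.0256). CYP1B1, a cytochrome P450 enzyme induced through the aryl hydrocarbon receptor, had -1.14 in VKH (adjusted p = 0.0675) and -1.32 over the 3 cases (adjusted p = 0.0178). The call of CSF3R in VKH was lost in 10 of 23 alternatives and that of CXCL14 in 4. Both were lost with no scaling (adjusted p = 0.138 and 0.0585), with positive-control scaling (adjusted p = 0.615 and 0.408) and without VKH replicate 2 (-1.42 and -2.01). That of CSF3R was also lost, among others, with scaling without B2M (-0.85, adjusted p = 0.124) and without VKH replicate 1 (-1.46). The call of CXCL14 in vitiligo was lost in 4 of 20 alternatives, which were no scaling (adjusted p = 0.148), scaling without B2M (0.0603) or by the positive controls (0.429), and male healthy dogs only (0.0641). That of CYP1B1 over the 3 cases was lost, among others, with positive-control scaling (adjusted p = 0.461), without VKH replicate 1 (adjusted p = 0.0601) and without the vitiligo dog (adjusted p = 0.0676).

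**Figure D2:**
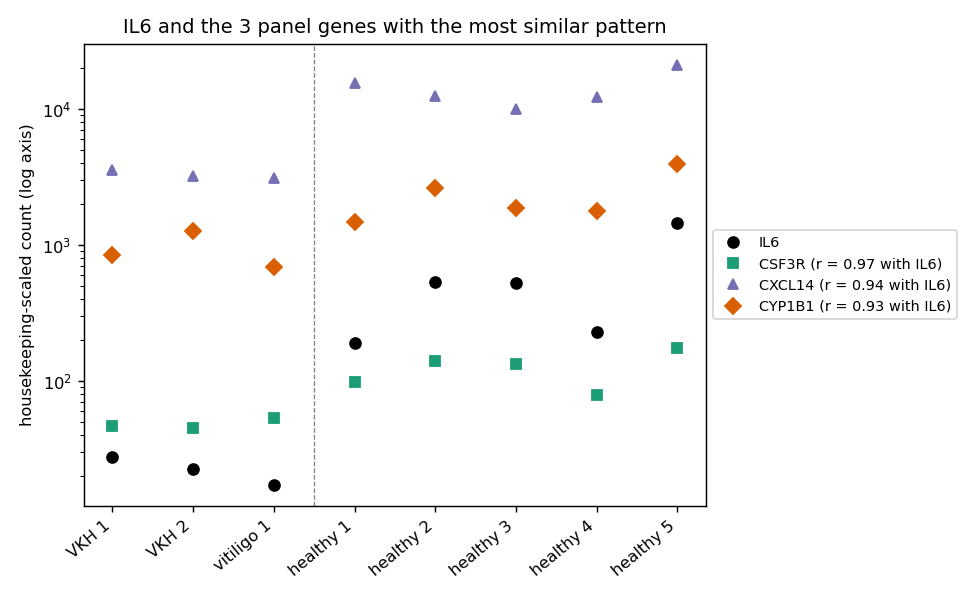
Housekeeping-scaled counts (vertical axis, logarithmic) of IL6 and of CSF3R, CXCL14 and CYP1B1 in each dog, with the cases left of the dashed line and the healthy dogs right of it. In each of these 4 genes the 3 cases lie below the 5 healthy dogs, as in 10.9% of all genes. CSF3R, CXCL14 and CYP1B1 were chosen by their correlation with IL6 over these dogs, which favours this pattern.

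Among the 7 measured genes of the list of IL6 and inflammatory genes, 1 rose (TNF), 1 fell (IL6) and 5 did not pass the test in VKH, with a median log2 fold change of -0.97 against -0.0078 over all genes. In vitiligo 0 rose, 1 fell and 6 did not pass, with a median of -1.78 against 0.29. The vitiligo median is the value of IL1B, which was under background in that dog. Over the 3 cases TNF rose and IL6, CXCL8 and CCL2 fell. These are edgeR's calls. In DESeq2 IL6, CXCL8 and CCL2 were lower in VKH and in vitiligo, 3 genes each. TNF was higher in VKH and 0 genes were higher in vitiligo. Over all genes DESeq2 called 48 higher and 31 lower of 150 in VKH, and 33 higher and 9 lower of 154 in vitiligo. For this list limma gave the same calls as edgeR in both. At an unadjusted p under 0.05, edgeR gave 1 higher (TNF) and 3 lower genes (CCL2, CXCL8 and IL6) in VKH. In vitiligo it gave 1 higher (TNF) and 2 lower (CCL2 and IL6). At that threshold 53 of all 156 genes were higher and 33 lower in VKH, and 45 higher and 11 lower in vitiligo. By edgeR's adjusted p, genes called higher made up 31.4% of all genes in VKH, 21.8% in vitiligo and 36.5% over the 3 cases.

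TNF, the inflammatory cytokine that itself induces IL6 in many cells, moved the opposite way, with 151 and 190 scaled counts in VKH and 101 in vitiligo, against 55.2, 41.4, 56.5, 38.7 and 67.1 in healthy replicates 1 to 5. Every case lay above every healthy dog, as in 34.6% of genes, and TNF rose by 1.71 on the log2 scale in VKH (standard error 0.32, adjusted p = 0.00229). The log2 fold change of TNF in vitiligo was 0.96 (adjusted p = 0.133). In VKH the call of TNF was lost only with scaling by the library total, at 0.85 (adjusted p = 0.0875), and over the 3 cases, where TNF rose too (adjusted p = 0.00274), with that scaling (0.74, adjusted p = 0.103) and with the dog number as a block (1.61, adjusted p = 0.0625).

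CXCL8, the neutrophil chemokine, had 324 and 331 scaled counts in VKH and 268 in vitiligo, against 195, 4670, 3500.0, 396 and 3718 in healthy replicates 1 to 5. The cases overlapped the healthy range because healthy replicate 1 lay below them. Its log2 fold change was -2.93 in VKH (adjusted p = 0.0661) and -3.02 over the 3 cases (standard error 0.95, adjusted p = 0.0214), and the call over the 3 cases was lost in 5 of 20 alternatives. These were the fits without either VKH dog (adjusted p = 0.06 and 0.0715) or without the vitiligo dog (adjusted p = 0.0663), limma (-2.15, adjusted p = 0.0977) and the dog number as a block (-1.46, adjusted p = 0.405). CCL2, the monocyte chemokine, had every case below the healthy range, as in 10.9% of genes. It had 1620 and 731 scaled counts in VKH and 853 in vitiligo, against 1691, 8032, 4180, 2061 and 2796 in the healthy dogs. It changed by -1.67 in VKH (adjusted p = 0.0662) and -1.81 over the 3 cases (standard error 0.55, adjusted p = 0.0195), which was lost without VKH replicate 2 (adjusted p = 0.0816) or the vitiligo dog (adjusted p = 0.0663) and, among others, with positive-control scaling (adjusted p = 0.198). Healthy replicates 1 and 4, the lowest healthy dogs for IL6, were also the lowest for CXCL8 and CCL2. The remaining genes of the list did not pass in VKH. The log2 fold change was -0.97 for the inflammasome product IL1B (adjusted p = 0.171), 0.22 for the anti-inflammatory IL10 (adjusted p = 0.603) and -0.68 for SERPINB2, an inhibitor of plasminogen activators (adjusted p = 0.345).

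CCL20 was above background in every dog and showed no difference that the design could detect. Its raw counts were 204 and 68 in VKH and 54 in vitiligo, against 37, 140, 396, 61 and 38 in healthy replicates 1 to 5, and the scaled counts were 138 and 85.4 in VKH and 62.1 in vitiligo, against 52.4, 171, 213, 69.4 and 36.9. All 3 cases lay inside the healthy range, which spanned 5.77-fold. The log2 fold change was 0.037 in VKH (standard error 0.65, 95% interval -1.40 to 1.48, adjusted p = 0.956) and -0.81 in vitiligo (standard error 0.91, 95% interval -2.85 to 1.23, adjusted p = 0.566). These intervals hold changes of more than 2-fold either way. Counts per dog were 1.33 to 17.3 times the background limit, with healthy replicates 1 and 5 nearest to it.

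IL17A could not be told from background in any dog. Its raw counts were 4 and 7 in the VKH dogs and 5 in the vitiligo dog, against 8, 2, 7, 9 and 7 in healthy replicates 1 to 5. In 7 of the 8 dogs the count was below the mean of the negative controls of its lane, the exception being VKH replicate 2, with 7 counts against a mean of 6.5. The upper end of the 95% Poisson interval lay between 7.22 and 17.1 counts. The test gave an adjusted p of 0.72 in VKH and 0.893 in vitiligo, and no fold change is read from it because both sides lay under the limit. A change of IL17A was not detectable at this depth, and the counts do not show that the transcript was absent.

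The type 17 list had 5 of its 13 genes on the panel. Over all genes 31.4% were called higher and 12.2% lower in VKH, and 21.8% higher and 2.56% lower in vitiligo. In VKH 1 rose (IL12B), 0 fell and 4 did not pass, with a median log2 fold change of 0.037, and in vitiligo 0 of 5 passed in edgeR (also 0 at an unadjusted p under 0.05, 0 in DESeq2 and 0 in limma), with a median of -0.20. The vitiligo median of -0.20 is the value of IL17A, which stood on background counts. IL12B, the p40 chain shared by IL12 and the type 17 growth factor IL23, had 54.0 and 112 scaled counts in VKH and 62.1 in vitiligo, against 35.4, 21.9, 30.7, 53.5 and 26.2 in healthy replicates 1 to 5, of which replicates 1 and 2 were under background. Every case lay above the highest healthy dog, as in 34.6% of genes, VKH replicate 1 by a small margin. In VKH it rose by 1.30 on the log2 scale (standard error 0.42, adjusted p = 0.0304). The call was lost in 11 of 23 alternatives, such as scaling by the library total (0.40, adjusted p = 0.415), leaving out VKH replicate 2 (0.69, adjusted p = 0.314) and leaving out healthy replicate 2, 3 or 5 (adjusted p = 0.0569, 0.0587 and 0.052). IL21, a helper T cell cytokine, exceeded background in 2 of 8 dogs, and IL1B, which promotes type 17 differentiation and stands in the inflammatory list too, in 6 of 8.

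IL13 lay just above background in the cases and did not pass the test. Its raw counts were 27 and 28 in VKH and 29 in vitiligo, against 25, 33, 136, 39 and 20 in healthy replicates 1 to 5, and healthy replicates 1 and 5 were under the limit. Scaled, they were 18.2 and 35.1 in VKH and 33.3 in vitiligo, against 35.4, 40.2, 73.2, 44.4 and 19.4 in the healthy dogs. VKH replicate 1 lay just below the healthy range and the other cases inside it. Healthy replicate 3 alone, at 136 counts (95% Poisson interval 114 to 161), was above the faintest positive control. The log2 fold change was -0.71 in VKH (standard error 0.53, 95% interval -1.89 to 0.47, adjusted p = 0.282) and -0.36 in vitiligo (standard error 0.69, 95% interval -1.90 to 1.17, adjusted p = 0.735). With scaling by the library total, which moves the median of all genes to -0.87 in VKH, IL13 passed at -1.54 (adjusted p = 0.0284).

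The type 2 list had 8 of its 20 genes on the panel. The shares over all genes were 31.4% higher and 12.2% lower in VKH, and 21.8% higher and 2.56% lower in vitiligo. In VKH 1 rose (CCL22), 0 fell and 7 did not pass, with a median log2 fold change of -0.59, and in vitiligo 2 rose (CCL17 and CCL22), 0 fell and 6 did not pass, with a median of -0.36. The vitiligo median lay between the values of IL13 and IL9, and IL9 was above background in 0 of 8 dogs. In VKH, edgeR at an unadjusted p under 0.05 and DESeq2 each gave 1 lower gene, CCL24. Over all genes 33 of 156 were lower at that unadjusted p and 31 of 150 in DESeq2. The members that rose are chemokines for cells carrying CCR4 and not cytokines. CCL22 had 245 and 66.5 scaled counts in VKH and 228 in vitiligo, against 38.2, 15.8, 40.9, 25.0 and 42.8 in healthy replicates 1 to 5, with a log2 fold change of 2.25 in VKH (standard error 0.50, adjusted p = 0.00538) and 2.79 in vitiligo (standard error 0.59, adjusted p = 0.00689). It was above background in 5 of 8 dogs. Its call in VKH was lost without VKH replicate 1 (1.02, adjusted p = 0.178), with the library total (1.58, adjusted p = 0.0595) and in the methods' t-test, and that in vitiligo, among others, with positive-control scaling (adjusted p = 0.17). The panel held 3 of 6 Langerhans and dendritic cell markers, 1 of them CCL22 itself. The Langerhans cell marker CD207 was under background in all 8 dogs. BATF3, a transcription factor of dendritic cells, had 66.8 to 99.2 scaled counts in VKH and 75.9 in vitiligo, against 17.5 to 59.2 in healthy skin, with a log2 fold change of 1.07 in VKH (adjusted p = 0.0675), and its part in the rise of CCL22 was not tested. CCL17 had 23.0 and 27.6 scaled counts in VKH and 718 in vitiligo, against 32.6 to 38.7 in healthy dogs, and rose in vitiligo by 4.37 (standard error 0.31, adjusted p = 1.14e-05). Its call over the 3 cases, at 2.88 (adjusted p = 0.0214), rests on the vitiligo dog, and without that dog the value was -0.46 (adjusted p = 0.266).

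The other type 2 cytokines were at the edge of measurement. IL4, which shares a receptor chain with IL13, exceeded background in 1 of 8 dogs and IL9, a mast cell growth factor, in 0 of 8. TSLP, an epithelial cytokine that primes type 2 responses, was above background in all 8 dogs, with 41.2 and 60.3 scaled counts in VKH and 59.8 in vitiligo, against 53.5 to 119 in healthy dogs, and had a log2 fold change of -0.86 in VKH (adjusted p = 0.105). Of the eosinophil chemokines, CCL24 had a log2 fold change of -1.89 in VKH (adjusted p = 0.0611), whereas CCL26 had 0.85 (adjusted p = 0.173). CCL26 was above background in only 1 of the 5 healthy dogs. Of the mast cell markers, 4 of 5 were on the panel and summed to 664 and 700.1 scaled counts in VKH and 993 in vitiligo, against 928 to 1267 in healthy skin. Of these, only CPA3 passed in VKH (log2 fold change -1.42, adjusted p = 0.0127). MS4A2 (-0.58, adjusted p = 0.168), HDC (-0.38, adjusted p = 0.454) and KIT (-0.31, adjusted p = 0.430) did not.

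**Figure D3:**
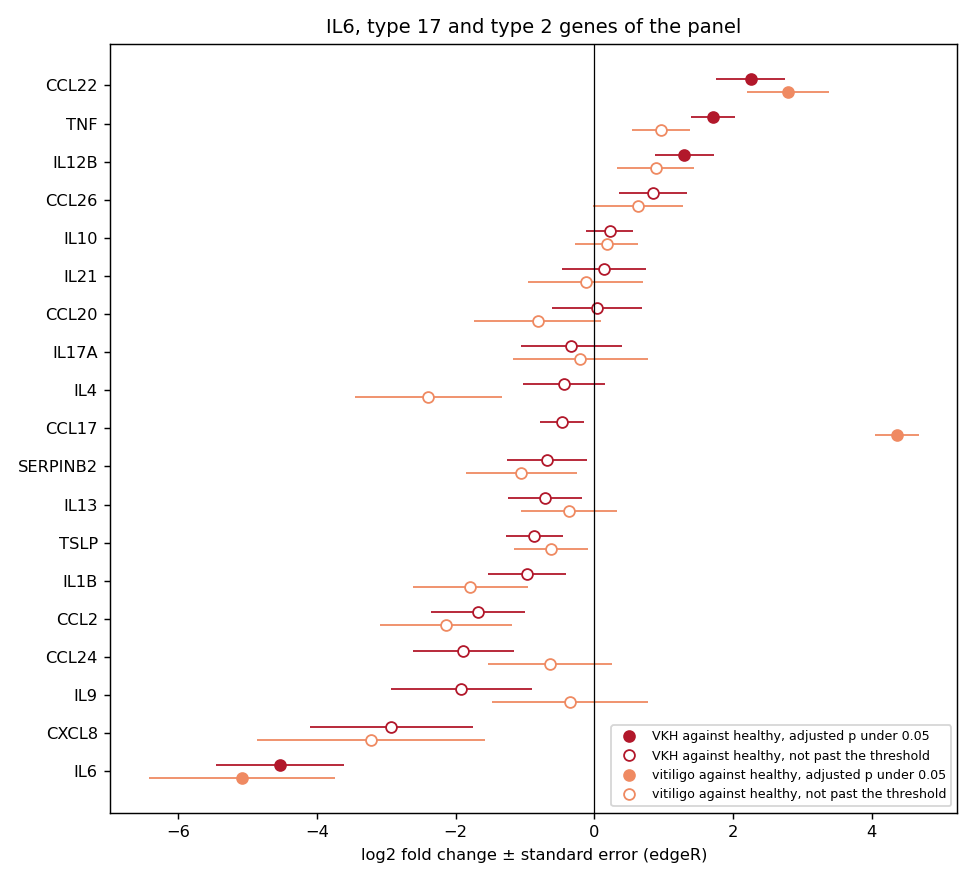
Log2 fold change with its standard error (horizontal axis) of the 19 measured genes of the IL6, type 17 and type 2 lists in VKH and in vitiligo, each against the 5 healthy dogs, with filled points where the adjusted p was under 0.05. IL6 lies farthest left in both comparisons, and IL17A, CCL20 and IL13 have open points in both. IL17A and IL9 were above background in 0 dogs and IL4 in 1, so their points stand on background counts. Other points also lean on counts under background. IL21 was above it in 2 of 8 dogs, CCL26 in 1 and CCL22 in 2 of the 5 healthy dogs, and IL6 and IL1B were under it in the vitiligo dog.

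IL6, CCL20 and IL13 were also compared between the diseases. The log2 difference of VKH over vitiligo was 0.55 for IL6 (95% interval -2.02 to 3.11, adjusted p = 0.95), 0.85 for CCL20 (-1.37 to 3.07, adjusted p = 0.949) and -0.35 for IL13 (-2.03 to 1.34, adjusted p = 0.95). None passed, and the intervals are wide with 1 vitiligo dog. Over all genes 0.641% were lower in VKH than in vitiligo and 0% higher in edgeR, and at an unadjusted p under 0.05 it gave 6 lower and 0 higher genes. In order of mean scaled count IL6 ran vitiligo, VKH and healthy, with VKH and vitiligo not separated by the test, and for CCL20 and IL13 no neighbours in the order were separated.

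**Figure D4:**
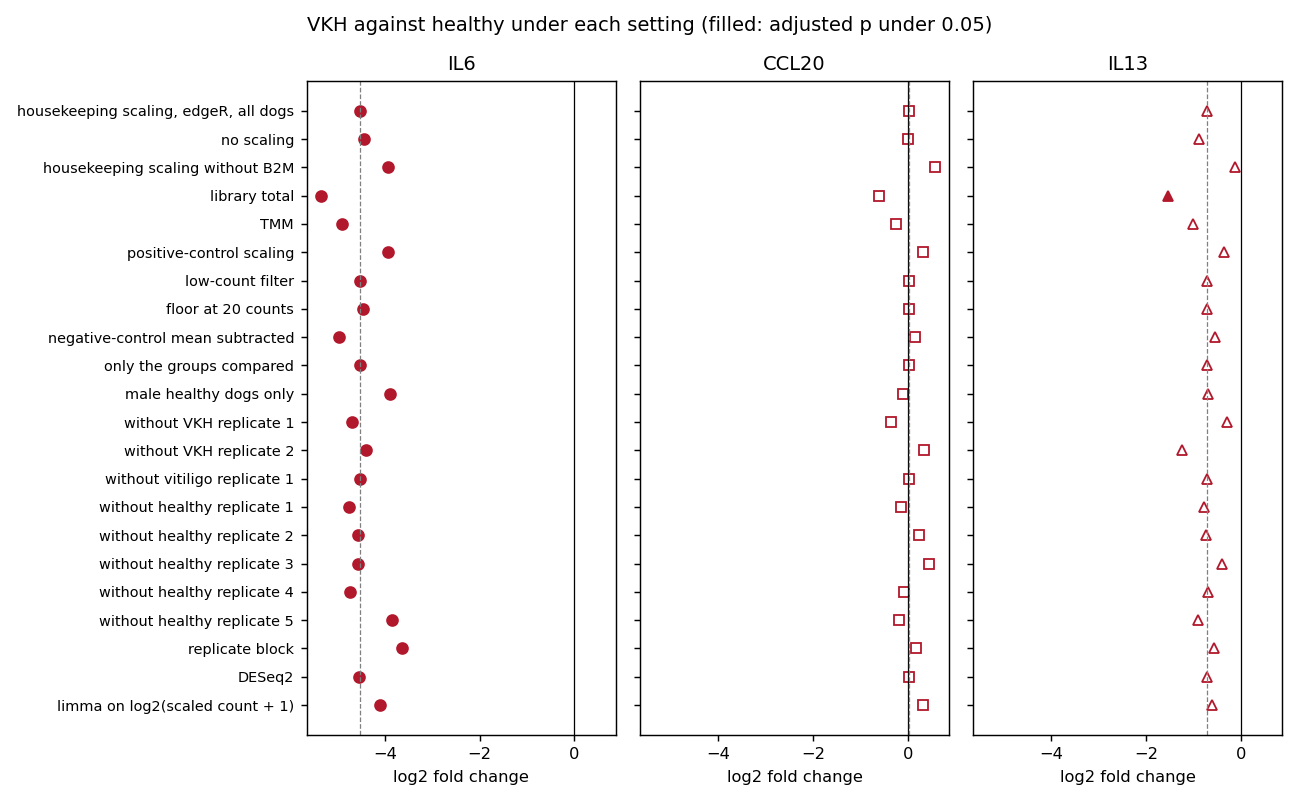
Log2 fold change in VKH against healthy dogs (horizontal axis) of IL6, CCL20 and IL13 under each scaling and choice of dogs fitted, in edgeR, DESeq2 and limma (the methods' t-test is not drawn), with filled symbols where the adjusted p was under 0.05 and a dashed line at the value reported. IL6 stays between -5.36 and -3.63 and is filled in every setting drawn, whereas CCL20 lies on both sides of 0 and IL13 is filled once, with the library total.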

How the data were processed

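RNA from fixed skin of 8 dogs was hybridised to the panel and read on a Sprint instrument, with nSolver named in the paper's methods. The authors deposited raw counts per probe with the 4 housekeeping, 6 positive and 8 negative controls still in the table, and no alignment or genome build is involved. Of the 160 panel genes, 72 were named by accession and 76 by symbol in a RefSeq table, 5 from the paper and 7 as given.

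Each dog's counts were scaled by its housekeeping level, the geometric mean over B2M, RPL13A, CCZ1 and HPRT, which served edgeR (version 4.0.16, under R 4.3.3) as library size. The legacy quasi-likelihood model was fitted once with 3 groups of dogs and once with the 3 cases joined. All adjusted p-values are Benjamini-Hochberg values over 156 genes, called at 0.05, and no filter on low counts was used. Errors beside log2 fold changes are standard errors. Permutation tests used log2(scaled count + 1). The procedure was tested on simulated data. P-values rest on the spread between separate dogs, and those for vitiligo assume that its 1 dog varies like the others.

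Alternatives were 5 other scalings, a filter on low counts (at least 20 counts in at least 2 dogs, which removed 10 genes), a floor at 20 counts, subtraction of the negative controls, DESeq2 1.42.0, limma 3.58.1, other choices of dogs, a block for the dog number, and the two-sided t-test that the methods name, run on raw counts. The ANOVA over sets of genes that the methods also name was not rerun. Genes named are the 4 members, the genes of 3 pathway lists and the 3 genes most correlated with each member. Those for CCL20 and IL13 were computed and are given at the end. The members and lists were chosen with earlier results of these data known.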

Additional observations from a re-analysis of the deposited data

Results flagged for a closer look

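CCL17 differed between the diseases, with a log2 difference of VKH over vitiligo of -4.83 (standard error 0.44, adjusted p = 9.69e-05, edgeR), from raw counts of 34 and 22 in the VKH dogs and 625 in the vitiligo dog. It stands on 1 vitiligo dog. Among the 5 healthy dogs, the IL4 value of healthy replicate 2 lay apart, below the others, with a gap of 0.804 of the whole range on the log2 scale, where 0.71 is the critical value. Its raw count was 4, against 10, 28, 11 and 16 in the other healthy dogs, of which only 28 was above background. It was the 1 such gene among the 19 looked at, and chance gives about 1 in 20 groups.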

How the results depend on the processing

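IL6 was lower in the cases under every alternative in all 3 comparisons with healthy dogs, between -5.36 and -3.63 in VKH, -7.89 and -3.92 in vitiligo and -5.44 and -3.70 over the 3 cases (log2). It passed in each except the methods' t-test on raw counts in VKH, where the log2 ratio was -4.46 (adjusted p = 0.399) and the cause was not tested. Leaving out 1 dog gave -4.75 to -3.86 in VKH (adjusted p up to 0.0468), -5.30 to -4.41 in vitiligo and -4.91 to -4.02 over the 3 cases. IL13 passed only with the library total, at -1.54 in VKH and -1.26 over the 3 cases (adjusted p = 0.0284 and 0.0308), and in vitiligo it turned to 0.15 without B2M and 0.10 with the dog number as a block. CCL20 never passed. Its sign in VKH turned with the library total (-0.60), TMM (-0.25) and male healthy dogs only (-0.099), and leaving out 1 dog gave -0.35 to 0.44. Over the 3 cases it turned without B2M (0.34), with the replicate block (0.055) and in limma (0.052), and leaving out 1 dog gave -0.57 to 0.21. IL17A, under background throughout, turned without B2M (0.28 in VKH, 0.34 in vitiligo, 0.30 over the cases), with positive-control scaling (0.56 in VKH, 0.27 over the cases) and with a floor at 20 counts in vitiligo (0.16), and leaving out 1 dog gave -1.26 to 0.40 in VKH, -0.40 to 0.019 in vitiligo and -0.72 to 0.13 over the cases; it gave no value once the negative controls were subtracted, nor in DESeq2 for VKH. CCL17 over the 3 cases turned to -0.46 without the vitiligo dog, and without each other dog it lay at 2.86 to 3.42.

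The number of genes past the threshold, 68 in VKH, 38 in vitiligo and 79 over the 3 cases, fell to 39, 20 and 50 without scaling, to 41, 9 and 43 with positive-control scaling and to 42, 24 and 37 with the replicate block, to 25 in vitiligo with male healthy dogs only and to 24 in VKH in the methods' t-test after adjustment. Leaving out 1 dog gave 39 to 70 genes in VKH, with 44 without VKH replicate 1 and 39 without VKH replicate 2, 30 to 39 in vitiligo and 63 to 81 over the cases. With the library total 23 rose and 59 fell in VKH, against 49 and 19 with housekeeping scaling, and the median of all genes moved to -0.87. Without B2M the shift went the other way, with 63 higher and 6 lower in VKH. The median of all genes was then 0.57 in VKH and 0.81 in vitiligo, and IL6 stood at -3.94 in VKH. The paper lists B2M itself among the genes that differed between VKH and healthy dogs. The dog numbers pair no dogs (correlations of deviations -0.076 and -0.13). Counts near background limit IL6 in the cases, IL13 and IL17A.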

Other observations

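The genes whose pattern over the 8 dogs was most like that of CCL20 were HSD11B1, which regenerates cortisol, the death receptor FAS and the epidermal keratin KRT1, with Pearson correlations of 0.61, 0.55 and 0.51 on log2 scaled counts. For IL13 they were IL-16, a T cell chemoattractant, the lymphoid chemokine CCL21 and TSLP, with 0.82, 0.79 and 0.77. The correlations describe dogs that fall into diseased and healthy ones, and IL13 was under background in 2 of them. In VKH the log2 fold change was 1.07 for FAS (adjusted p = 0.0286), 1.90 for KRT1 (adjusted p = 0.0179), -0.93 for IL-16 (adjusted p = 0.0473) and -1.17 for CCL21 (adjusted p = 0.109).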
